A study of Danio rerio with 6 samples.

Results

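The Period genes per1a, per1b, per2 and per3 encode the PER proteins, the repressor arm of the circadian clock. All 4 are among the 17835 genes listed for sorted endocardial cells of cryoinjured zebrafish ventricles, and all 4 were among the 16383 genes tested. They were picked by symbol, as a family that had been chosen on the difference between myd88-/- and myd88+/+ libraries in these same data. Their differences are therefore given as a description, with standard errors and without p-values.

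In the clock loop, CLOCK or NPAS2 pairs with BMAL (arntl genes) on E-box elements and switches on the period and cryptochrome genes. PER and CRY proteins then gather in complexes that block this activation, and their decay lets the next cycle begin. Most zebrafish cells, heart cells included, carry a clock of their own that responds to light directly. In these fish per2 is known as a light-induced gene, while per1a, per1b and per3 are known for daily rhythms. In mouse, Per1 is also induced by glucocorticoid hormones.

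Endocardial cells line the inside of the heart. They were sorted as live EGFP+ cells from adult ventricles 96 hours post cryoinjury (hpci), an injury made by freezing the ventricular apex. All fish carried the enhancer trap ET(krt4:EGFP), allele sqet33-1A, whose EGFP marks the endocardium, and 4 ventricles were pooled for each library. Of the libraries, 3 were from myd88+/+ fish (wild-type pools) and 3 from their myd88-/- siblings (mutant pools), which carry the allele hu3568 and lack the adaptor of Toll-like and interleukin-1 receptors in every cell, not in the endocardium alone. The hour of day at which each pool was collected is not given in the sources used here.

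Library totals lay between 11136966 and 11847536 normalized reads. One library stood apart: 251 genes exceeded their value in every other library more than 2-fold in myd88-/- replicate 3, whereas the remaining libraries had 13 to 36 such genes. For myd88 itself the normalized read counts were 1305, 1149 and 1070 in wild-type pools and 817, 575 and 849 in mutant pools, a log2 difference of -0.67 ± 0.17 (SE) that was not past the criteria used here (limma adjusted p = 0.1502). The genotypes did not overlap, and read counts do not test for the protein. All 15 endocardial and endothelial markers were detected, and their summed values ran from 140439 to 166655 in wild-type pools and from 106810 to 165121 in mutant pools. Macrophage markers (10 of 11 in the table) summed to 1881 to 4448 in wild-type pools and 1119 to 2662 in mutant pools. The 11 fibroblast, epicardial and mural markers summed to 19576 to 33679 in wild-type and 11753 to 35748 in mutant pools. Of 7 neutrophil markers 3 were listed, with sums of 62 to 136 in wild-type and 64 to 89 in mutant pools. Cardiomyocyte markers summed to 16540 to 26403 and 16252 to 22692, and markers of erythrocytes and thrombocytes to 6860 to 10836 and 10225 to 13437. Most of the latter sum was thbs1b alone. It had 6591, 7379 and 10784 in wild-type pools and 9956, 13044 and 10931 in mutant pools. Among mutants, replicate 3 had the highest sum for endocardial, macrophage, neutrophil and fibroblast, epicardial and mural markers, but not for the other lists. The endocardial rank rested on krt4, at 13451, 12266 and 44876 in mutant replicates 1, 2 and 3. In the erythrocyte and thrombocyte list the globin genes were highest among mutants in replicate 3, such as hbaa1 at 68, 117 and 223. limma placed 0 markers of these cell types past the criteria. At an unadjusted p under 0.05 it placed 8 endocardial and endothelial, 4 macrophage, 1 fibroblast, epicardial or mural and 1 erythrocyte or thrombocyte marker. Of all 16383 genes tested, 2157 were under that limit. Among the endocardial and endothelial markers under it, tie1, nfatc1 and erg were higher in mutants and the others lower. The macrophage markers under it and tagln were lower, and thbs1b was higher. The part of these markers in the results was not tested. In bulk samples, fewer cells of a type and less RNA per cell cannot be told apart.

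All 4 Period genes were lower in each myd88-/- library than in each myd88+/+ library. A separation toward lower values was also found in 8.98% of all genes tested. The differences were of very unequal size, from 7.76-fold for per1a to 1.51-fold for per1b in the ratio of mean normalized read counts. Of the 4 genes, 3 were past the criteria used here and lower, as were 0.562% of all genes tested. These criteria were an adjusted p under 0.05 and a change of more than 1.5-fold. The limits are those of the study, but the test was limma and not its DESeq2. Since the family was chosen on this contrast, neither count is evidence about it.

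**Figure D1:**
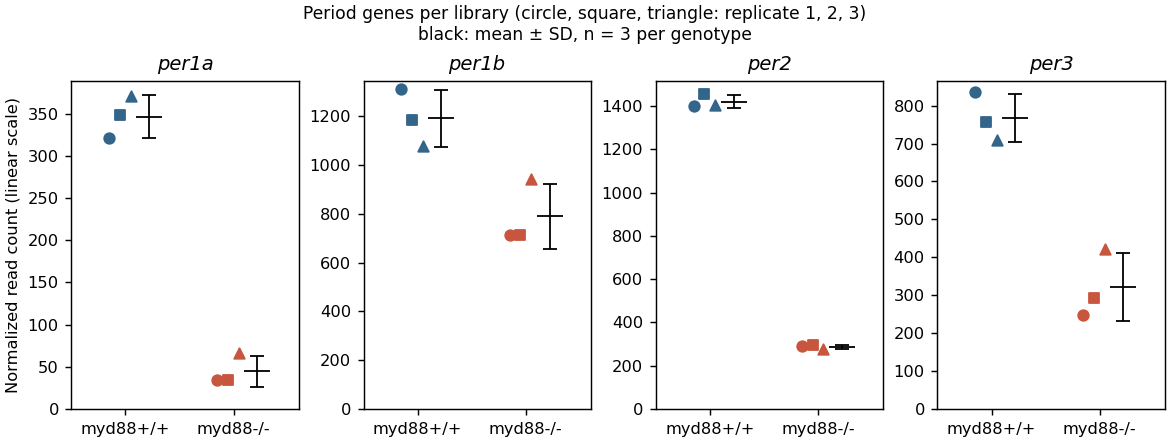
Normalized read count (y axis, linear, from 0) of each Period gene in the 3 myd88+/+ (blue) and 3 myd88-/- (red) libraries, with the mean and SD in black. The genotypes do not overlap for any of the 4 genes, and in myd88-/- cells the triangle of replicate 3 is the highest point for per1a, per1b and per3 but the lowest for per2.

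The gene per2 (ENSDARG00000034503, minus strand, chromosome 2, 48309600 to 48375342 on danRer11) encodes the light-induced member of the family in zebrafish. Its normalized read counts were 1399, 1457 and 1405 in myd88+/+ libraries. In myd88-/- libraries they were 289, 295 and 278. Both groups were tight and lay far apart: the lowest myd88+/+ value was 4.74 times the highest myd88-/- value. The mean was 1420 ± 31.9 (SD, n = 3) in wild-type and 287 ± 8.62 in mutant pools, so that the mutant level was 20.2% of the wild-type level. On the log2(value + 1) scale the difference was -2.30 ± 0.11 (SE). The spread among pools was no larger than counting alone would give, which is about 37.7 at the myd88+/+ mean and 17.0 at the myd88-/- mean.

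The gene per1a (ENSDARG00000056885, minus strand, chromosome 10, 22809715 to 22831611) is one of a pair of zebrafish Per1 genes. Normalized read counts of per1a were 321, 348 and 371 in myd88+/+ libraries. They were 34, 34 and 66 in myd88-/- libraries. The first pair of mutant pools was equal, and replicate 3 stood at 1.94 times their mean, yet it remained below every wild-type pool by a factor of 4.86. The mean was 347 ± 25.0 (SD, n = 3) in wild-type and 44.7 ± 18.5 in mutant pools, or 12.9% of the wild-type level. The log2 difference was -2.998 ± 0.265 (SE), and -3.31 ± 0.19 without myd88-/- replicate 3. A lower log2 difference was found for 12 of the 16383 genes tested.

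The partner of per1a, per1b (ENSDARG00000012499, plus strand, chromosome 7, 50822465 to 50847296), gave the smallest difference of the 4. Normalized read counts of per1b were 1313, 1184 and 1080 in myd88+/+ libraries. They were 713, 714 and 944 in myd88-/- libraries. The groups did not overlap, but the gap was narrow, since the lowest wild-type pool was only 1.14 times the highest mutant pool. The mean was 1192 ± 117 (SD, n = 3) against 790.3 ± 133, or 66.3% of the wild-type level, with a log2 difference of -0.60 ± 0.15 (SE). This gene was not past the criteria used here (limma, not the DESeq2 test of the study), and a lower log2 difference was found for 1146 genes. Without myd88-/- replicate 3 its log2 difference was -0.74 ± 0.13 and it was past them. That was the only 1 of 14 alternative fits in which per1b was past the criteria.

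The gene per3 (ENSDARG00000010519, plus strand, chromosome 11, 39959039 to 40021080) lay between these. Normalized read counts of per3 were 835, 757 and 709 in myd88+/+ libraries. They were 249, 293 and 422 in myd88-/- libraries. The mutant pools spread more widely than the wild-type pools, with replicate 3 the highest at 1.56 times the mean of the other mutant pools. The mean was 767 ± 63.6 (SD, n = 3) in wild-type and 321 ± 89.9 in mutant pools, or 41.9% of the wild-type level. The log2 difference was -1.29 ± 0.19 (SE), and -1.50 ± 0.15 without myd88-/- replicate 3. The SD of the mutant pools was well above the 17.9 that counting alone would give. The gene was past the criteria in 7 of 14 alternative fits, and per1a and per2 were past them in all 14. These fits share libraries and the family was chosen on this contrast, so the counts are a description and not evidence about it.

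Ordered by size, the log2 differences ran per1a, per2, per3 and per1b. The gaps between per2, per3 and per1b were each larger than the standard errors of both neighbours together, and so was that between per1a and per2. The ratio of per1a to per2 within libraries, however, did not separate the genotypes. The comparison of gaps is no test of the order, since the estimates share libraries and the family was chosen on this contrast. This order was kept in all 14 alternative fits, which share libraries with each other, and the 4 differences were negative in each. Since exon lengths are not in the table, the level of one Period gene is not compared with that of another. The log2 ratio of a pair within a library can still be followed between genotypes, because gene length and library size cancel.

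**Figure D2:**
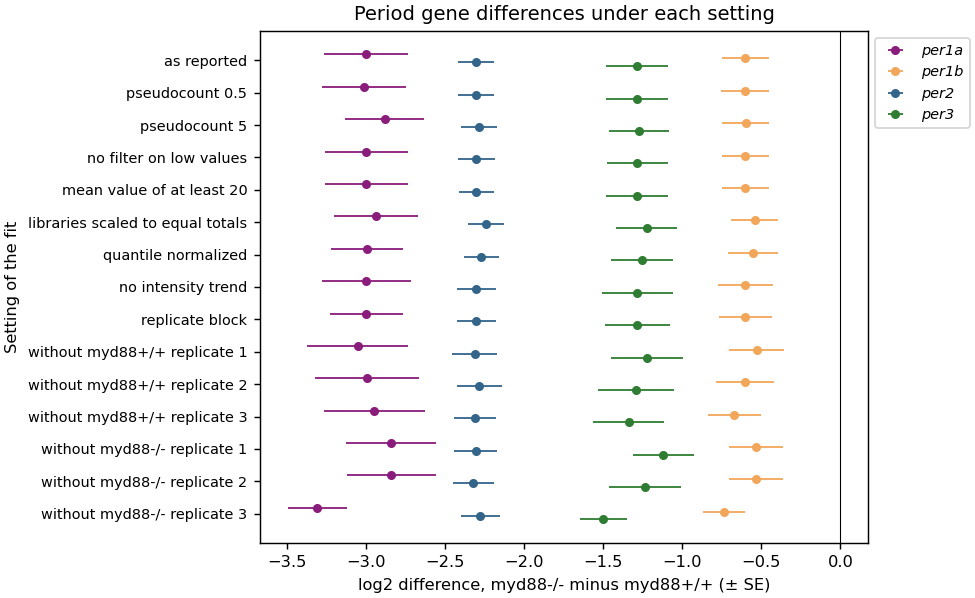
Log2 difference (x axis, myd88-/- minus myd88+/+, with SE) of each Period gene in the fit as reported and in 14 alternative fits (y axis). Each gene keeps its place in the order, and the widest shift is that of per1a, from -3.31 to -2.84.

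In 5 of the 6 pairs the ratios of mutant and wild-type pools did not overlap. The pairs share genes that were chosen on this contrast and differ unequally, so this count is only a description. The exception was the ratio of per1a to per2, at -2.12, -2.06 and -1.92 in wild-type pools. In mutant pools it was -3.05, -3.08 and -2.06, so that replicate 3 lay within the wild-type range. The log2 ratio of per2 to per3 was 0.74, 0.94 and 0.99 in myd88+/+ libraries. In myd88-/- libraries it was 0.21, 0.01 and -0.60, which were all below the wild-type values. The log2 ratio of per1b to per2 was -0.09, -0.30 and -0.38 in wild-type pools and 1.30, 1.27 and 1.76 in mutant pools. The 3 mutant ratios all lay above the wild-type ones. The log2 ratio of per1b to per3 was nearly constant among myd88+/+ pools (0.63 ± 0.02, SD, n = 3) and was 1.32 ± 0.18 in myd88-/- pools. Within the myd88+/+ pools per1b and per3 shared their order, with replicate 1 the highest and replicate 3 the lowest, whereas per1a had the opposite order.

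Where myd88-/- replicate 3 lay for each gene was then measured on the log2 scale, with the mean of the other myd88-/- libraries set to 0 and the myd88+/+ mean to 1. It lay at 0.28 for per1a, 0.55 for per1b and 0.43 for per3, hence part of the way toward wild-type values. For per2 it lay at -0.03, with the other mutants. Among 15 other clock genes past the criteria, 12 had replicate 3 on the wild-type side of the other mutant pools, with a median position of 0.23. Over all 115 genes past the criteria it was 79, with a median of 0.15. The marker sums of macrophages, of neutrophils and of fibroblast, epicardial and mural cells were also highest among mutants in this library. That of endocardium and endothelium was too, through krt4. The part of these sums in the values above was not tested.

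The 4 genes lie on 4 chromosomes, none of them chromosome 24, which carries myd88. No other listed gene overlapped them. Their nearest listed neighbours were related in pairs. pcolcea, a procollagen C-proteinase enhancer gene, lay 5.86 kb from per1a, and its paralogue pcolceb lay 1.85 kb from per1b. Likewise vamp2 lay 6.75 kb from per1a and vamp3 2.11 kb from per3, both of which encode vesicle membrane proteins of the synaptobrevin family. For per2 the nearest gene was hes6, at 4.90 kb. Of the 16 genes flanking the family (2 on each side of each member), 14 were tested. An unadjusted limma p under 0.05 was found for 2157 of all 16383 genes tested and for 0 of these 14. limma placed 0 of these 14 past the criteria. Their log2 differences ran from -0.31 to 1.104. The highest was that of si:dkeyp-94g1.1, which had mean values of only 11.7 and 23.3. For pcolcea the mean was 1089 in wild-type and 1065 in mutant pools, beside the 7.76-fold difference of per1a. The log2 difference of pcolcea was -0.21 ± 0.40 (SE), so its pools varied widely.

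**Figure D3:**
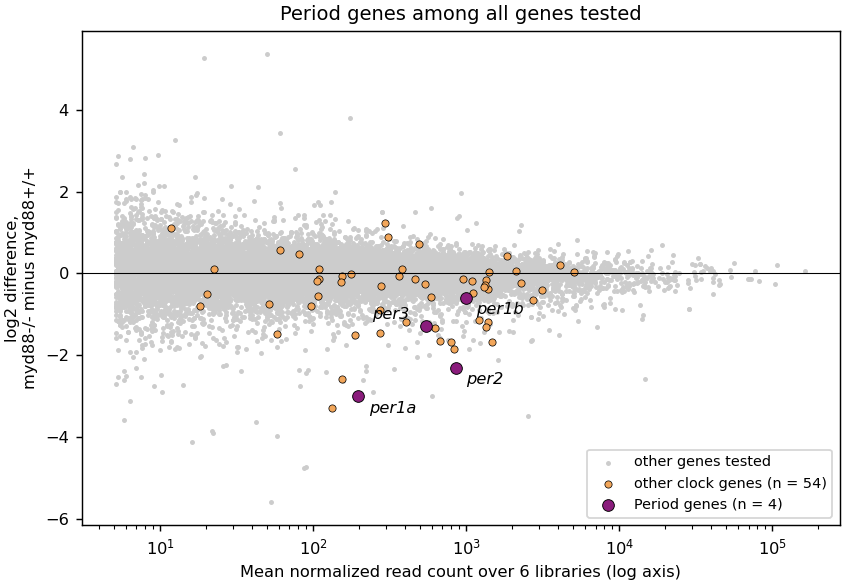
Log2 difference (y axis, myd88-/- minus myd88+/+) against the mean normalized read count over 6 libraries (x axis, log axis) for the genes tested (grey), with 54 other clock genes in orange and the 4 Period genes in purple. At their read counts, per1a, per2 and per3 lie below the bulk of the genes, while per1b lies near its lower border.

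The rest of the clock was examined with 5 lists taken by function. The lists were written with earlier results of these data known, so their counts are a description and not independent evidence. Of 54 other clock genes tested, 14 fell past the criteria, where 0.562% of all genes did, and 1 rose, where 0.14% of all genes did. The median log2 difference over the 54 genes was -0.29, beside 0.01 over all genes tested, with 40 genes lower and 14 higher. Of all 16383 genes tested, 8016 were lower and 8367 higher. In 27 of them the genotypes did not overlap with mutants lower, and in 4 with mutants higher, which was so for 8.98% and 9.09% of all genes. The count past the criteria was 9, 6 and 8 without myd88+/+ replicate 1, 2 and 3, and 8, 9 and 16 without myd88-/- replicate 1, 2 and 3. It was 2 without an intensity trend in the model.

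Of the 6 activators that drive the period genes through E-boxes, 1 fell and 1 rose past the criteria. Of all genes tested, 0.562% fell and 0.14% rose past them. npas2, a relative of clock, had normalized read counts of 316, 284 and 200 in wild-type pools and 42, 33 and 58 in mutant pools. Its log2 difference was -2.57 ± 0.26 (SE), and its limma adjusted p was 0.00322 and ran from 0.00137 to 0.0457 over 14 alternative fits. arntl1a, one of the BMAL genes, went the other way, with 233, 192 and 224 in wild-type pools and 418, 432 and 352 in mutant pools. Its log2 difference was 0.89 ± 0.15, with a limma adjusted p of 0.0420 and a range of 0.0223 to 0.217 over the alternatives. It was past the criteria in only 1 of the 6 fits that left out a library, that without myd88-/- replicate 3, where its log2 difference was 0.98. The log2 differences of the others were 0.12 ± 0.30 for arntl1b, 0.47 ± 0.27 for arntl2, 0.11 ± 0.32 for clocka and 0.00 ± 0.17 for clockb.

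The cryptochrome family includes the partners of PER in the repressor complex, but not all of its members are such partners. Its genes were lower in 7 of 8 cases, as were 8016 of all 16383 genes tested. Past the criteria, 4 of the 8 fell, as did 0.562% of all genes tested. cry1a had normalized read counts of 1577, 1719 and 1712 in wild-type pools and 801, 668 and 821 in mutant pools. cry1b had 840, 862 and 968 in wild-type pools and 365, 298 and 394 in mutant pools. For cry2 the counts were 585, 635 and 479 against 259, 261 and 226. The log2 differences were -1.13 ± 0.13 (SE) for cry1a, -1.34 ± 0.15 for cry1b and -1.18 ± 0.15 for cry2, with limma adjusted p-values of 0.00506, 0.00435 and 0.0112. Each lay between that of per1b and that of per2. cry5, a photolyase-type member that repairs DNA, had the largest fall of the list, with 241, 253 and 227 in wild-type pools and 22, 20 and 31 in mutant pools. Its 3′ part lies opposite foxred1. Reads on exons of both genes may not have been counted, since whether counting used strand is not given. The member that was not lower was cry3a, with 1251, 1301 and 1601 against 1398, 1226 and 1633 and a log2 difference of 0.03 ± 0.15.

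The Rev-erb receptors repress arntl genes, and the ROR receptors compete with them. Of 8 genes tested, 5 were lower and 3 higher in mutants. Past the criteria, nr1d1 and nr1d2a fell, as did 0.562% of all genes tested. The counts of nr1d1 were 1090, 1355 and 1173 in wild-type pools and 519, 242 and 424 in mutant pools. Both had a log2 difference of -1.67, with limma adjusted p-values of 0.0232 for nr1d1 and 0.0489 for nr1d2a, which reached 0.153 and 0.253 among the alternatives. nr1d2b, a paralogue of nr1d2a, had 2180, 1977 and 2049 against 2201, 1915 and 2424, a log2 difference of 0.07 ± 0.13.

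Regulators that pass the rhythm on through E-box and D-box elements numbered 12, with 10 lower and 2 higher in mutants. Where 0.562% of all genes tested fell past the criteria, 5 of these did. These were bhlhe41, an E-box repressor, tefa and dbpb, activators on D-boxes, nfil3-6, a relative of the D-box repressor nfil3, and ciarta, whose mouse relative represses CLOCK and BMAL. tefa had 1722, 1851 and 2185 in wild-type pools and 792, 753 and 759 in mutant pools, with a log2 difference of -1.31 ± 0.13 (SE). ciarta had 1767, 2071 and 2001 against 917, 803 and 834, a log2 difference of -1.19 ± 0.12. For the other 3 it was -1.66 ± 0.23 for bhlhe41, -1.46 ± 0.22 for dbpb and -1.50 ± 0.27 for nfil3-6. nfil3-5, of the same family as nfil3-6, had 120, 148 and 260 in wild-type pools and 407, 559 and 263 in mutant pools. Its log2 difference was 1.23 ± 0.33, with a limma adjusted p of 0.165, and the genotypes were separated by no more than the gap between 260 and 263.

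**Figure D4:**
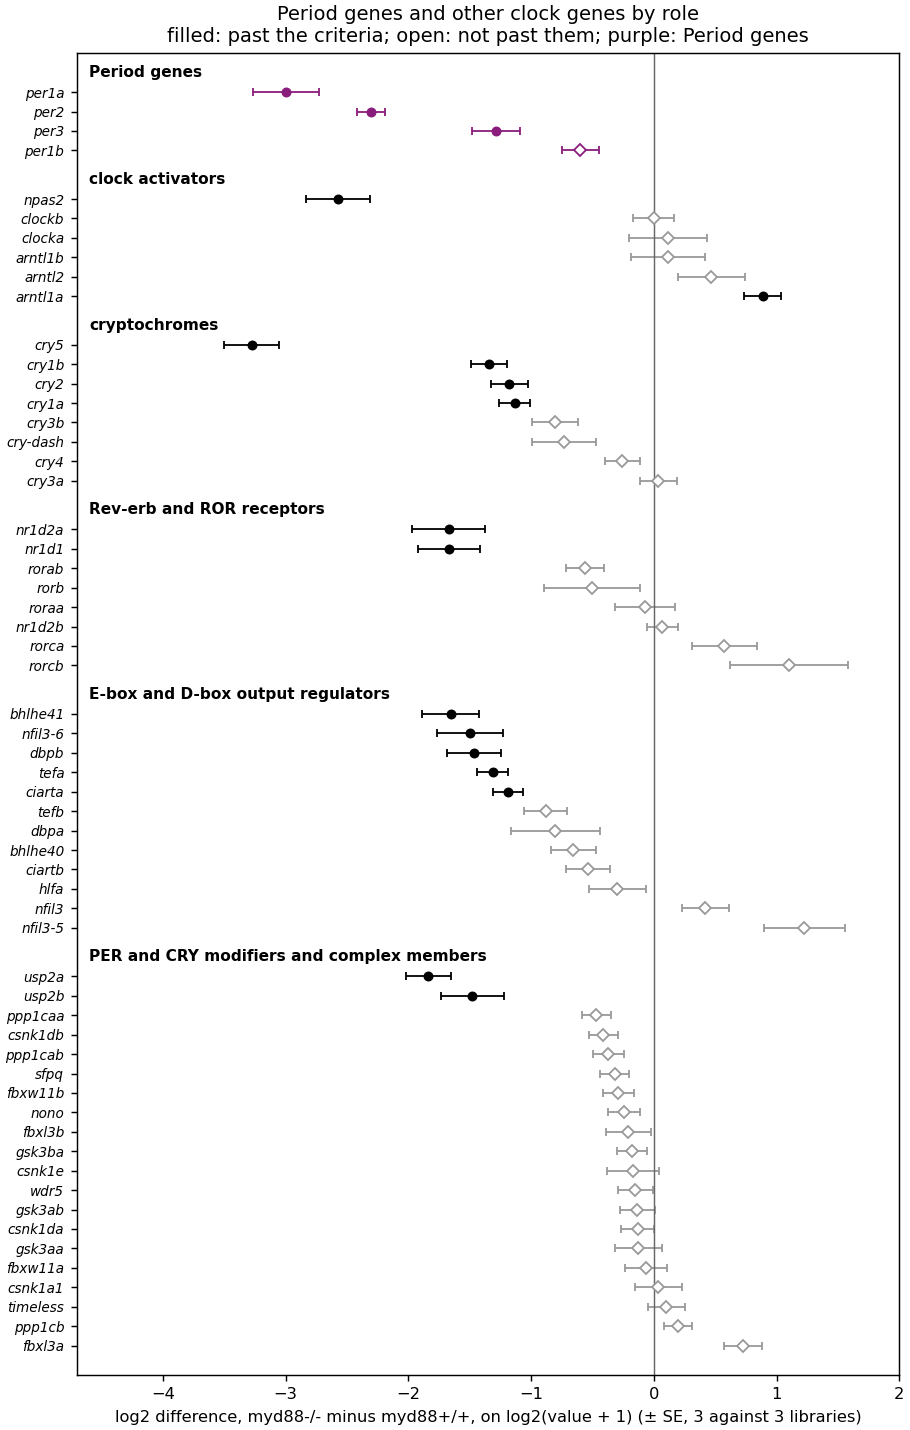
Log2 difference (x axis, myd88-/- minus myd88+/+, with SE from limma, 3 against 3 libraries) of the 4 Period genes (purple) and 54 other clock genes in 5 groups by role (y axis). Filled circles are past the criteria and open diamonds are not. 14 of the 54 lie to the left of zero as filled circles, and arntl1a is the one filled circle to the right.

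Genes that modify PER and CRY proteins or join their complexes numbered 20. Where 0.562% of all genes tested fell past the criteria, 2 of these did. These were usp2a and usp2b, whose mouse relative is a deubiquitinating enzyme that acts on clock proteins. usp2a had 1289, 1254 and 1338 in wild-type pools and 311, 311 and 488 in mutant pools, with a log2 difference of -1.84 ± 0.18 (SE) and a limma adjusted p of 0.00314. Like per1a, per1b and per3, usp2a was highest among mutants in replicate 3. So were cry5, npas2 and dbpb, but not cry2, tefa or nr1d1. Casein kinase genes, whose enzymes phosphorylate PER and set its stability, had log2 differences of -0.41 ± 0.12 for csnk1db, -0.13 ± 0.13 for csnk1da, -0.17 ± 0.21 for csnk1e and 0.04 ± 0.19 for csnk1a1. None of them was past the criteria. fbxl3a, whose mammalian relative marks CRY for degradation, had 407, 382 and 317 in wild-type pools and 555, 580 and 696 in mutant pools, a log2 difference of 0.73 ± 0.15 with a limma adjusted p of 0.0841.

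**Figure D5:**
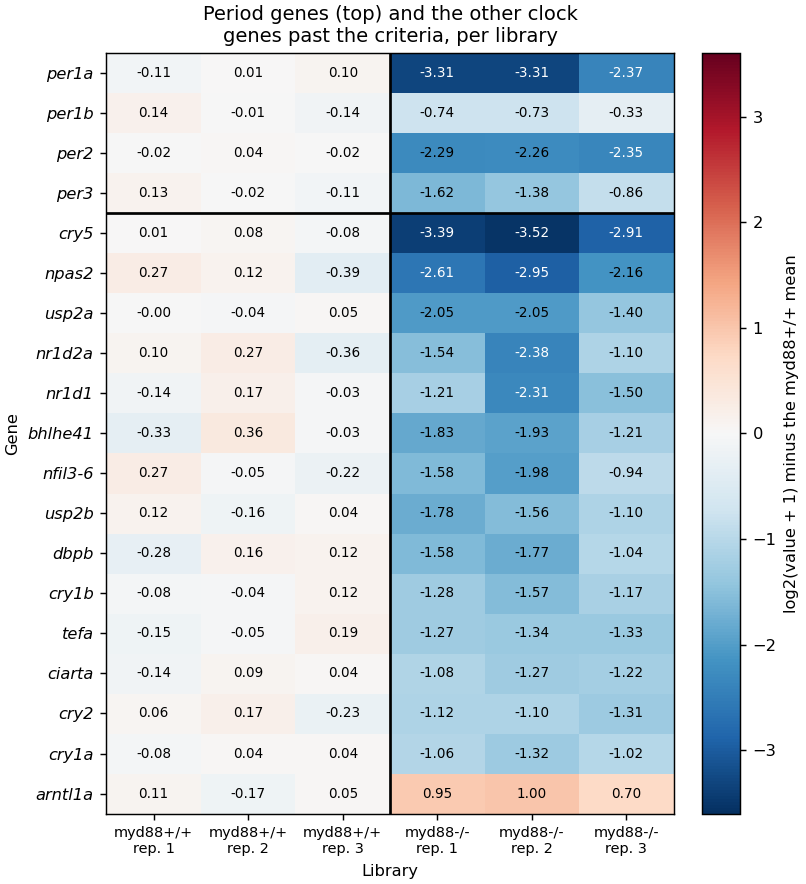
Each cell gives log2(value + 1) of a gene (y axis) in a library (x axis) minus its mean over the myd88+/+ libraries, with blue for lower and red for higher. The 4 Period genes are above the black line and the 15 other clock genes past the criteria below it. arntl1a alone is red in the 3 myd88-/- libraries, and per1a in replicate 3 is at -2.37 beside -3.31 in the other mutants.

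Genes with profiles most like those of the Period genes were sought among 10581 others with a mean value of at least 50. Likeness was the root mean square gap between log2 profiles over the 6 libraries, after each profile had been centred on its mean. All of these profiles share the split by genotype. For per1a the closest were cry5 (0.22), klf9 (0.27), a transcription factor gene induced by glucocorticoids, and fkbp5 (0.28), which encodes an immunophilin that binds the glucocorticoid receptor complex. per2 followed as the seventh closest to per1a, at 0.49. For per2 itself they were ddb2 (0.17), whose protein recognizes ultraviolet damage in DNA, and pip4k2aa (0.19) and cst14a.1 (0.24), which are both on chromosome 24, as is myd88. ddb2, which overlaps kbtbd4 on the same strand, had 467, 592 and 639 in wild-type pools and 128, 103 and 102 in mutant pools.

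For per3 the closest were ackr4b (0.09), an atypical chemokine receptor gene on chromosome 24, hivep1 (0.10) and slc23a2 (0.12). ackr4b overlaps acad11 on the other strand. Its counts were 7677, 7055 and 7523 in wild-type pools and 2657, 3049 and 4440 in mutant pools, with replicate 3 again the highest mutant pool. For per1b they were myo1cb (0.05), rps3 (0.05) and CABZ01083943.1 (0.06), none of them a clock gene. Between per1a and per1b, the paralogous pair, the gap was 1.22, which placed per1b at rank 378 among the genes closest to per1a. Seen from per1b, the same gap placed per1a at rank 10543 of 10581 genes. No statement on shared control is made from these gaps.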

How the data were processed

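RNA from EGFP+ endocardial cells of pooled ventricles was measured by RNA-seq in 3 myd88+/+ and 3 myd88-/- libraries. Per the study's methods and, for the version of Trimmomatic, the submitters' processing notes, polyadenylated RNA was sequenced, reads were trimmed (Trimmomatic 0.39) and aligned to danRer11 with STAR 2.7.10a, duplicate, multimapping, ribosomal and mitochondrial reads were removed (Picard 3.0.0), and exon reads were counted with featureCounts 2.0.4, without reads shared by several genes. The loss of multimapping reads can lower closely similar genes; whether counting used strand is not given in the sources used here. The deposited values are a score: the authors normalized gene counts by DESeq2 1.36.0 size factors, and the result is in whole numbers: in the first myd88+/+ library no gene holds the value 20, where neighbouring numbers hold 120.75 on average. Unscaled depth per library was not used here. Counting error was approximated as the square root of a normalized value, which covers counting error only. All 6 value columns were used.

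limma 3.58.1 (R 4.3.3) was run on log2(value + 1), lmFit and eBayes with an intensity trend, with genotype as the only term, two-sided, and Benjamini-Hochberg adjustment over all genes with a mean value above 5. The criteria were the study's: adjusted p under 0.05 and more than 1.5-fold. The pseudocount of 1 understates changes of low genes. The code was tested on simulated data. Whether pools came from separate days or clutches is not given, so p-values measure only the spread between these pools. The members and the lists were chosen with earlier results of these data known. Genes named were the 4 members, myd88, list genes past the criteria, all activators, and the 3 closest profiles per member with a mean of at least 50 and no colon in the symbol. Other names (flanking genes, and list genes not past the criteria) were chosen after their values were seen. Pseudocounts of 0.5 and 5, no filter, a mean of at least 20, equal totals, quantile normalization, no intensity trend, the replicate number as a block and leaving out each library were tried. Sequences were not analysed here.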

Additional observations from a re-analysis of the deposited data

How the results depend on the processing

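The sign of all 4 Period differences was kept in all 14 alternatives. With libraries scaled to equal totals the log2 difference of per2 was -2.24, a shift beyond its within-genotype SD, and the median over all genes moved from 0.01 to 0.07. With 1 library left out, per1a ran from -3.31 to -2.84, per1b from -0.74 to -0.53, per2 from -2.32 to -2.28 and per3 from -1.50 to -1.12. Of 115 genes past the criteria (92 lower, 23 higher), 25 (19 lower, 6 higher) passed without an intensity trend and 28 to 255 (25 to 216 lower, 3 to 39 higher) with 1 library left out. Of the 15 other clock genes past the criteria, 2 passed without an intensity trend and 6 to 16 with 1 library left out; 6 of the 15 (cry5, cry1b, npas2, tefa, ciarta and usp2a) passed in each of those 6 fits, and 9 did not (cry1a, lost only without myd88+/+ replicate 2, and cry2, nr1d1, nr1d2a, bhlhe41, nfil3-6, dbpb, usp2b and arntl1a). Replicate numbers carry no stated pairing, and deviations of same-numbered libraries correlated at -0.12, 0.13 and -0.14. With a replicate block, 45 genes (39 lower, 6 higher) and 8 other clock genes passed. per3 was not past the criteria without an intensity trend, with the block, or without any 1 library other than myd88-/- replicate 3. At a value of 34, as for per1a in mutants, counting error is wide beside that of the other members.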

Other observations

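Genes that share known inducers with Period genes were looked at beside them. These lists too were written with earlier results of these data known, so their counts are a description. Of 8 light-inducible genes of zebrafish cells other than per2, all 8 had a negative log2 difference, as did 8016 of all 16383 genes tested. Past the criteria, 4 fell, as did 0.562% of all genes tested: cry5, ddb2, tefa and cry1a. The median over the list was -0.97, beside 0.01 over all genes tested. Of the remaining 4, cpdp, a photolyase gene, had a log2 difference of -0.57 ± 0.12 (SE), neil1 -0.80 ± 0.20, cry-dash -0.73 ± 0.26 and xpc, a DNA damage sensor gene, 0.00 ± 0.22, with overlapping genotypes. The list shares tefa, cry1a, cry5 and cry-dash with the clock lists, and cry-dash is on chromosome 24, as is myd88.

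Of 10 glucocorticoid-responsive genes, 4 fell past the criteria, as did 0.562% of all genes tested: fkbp5, klf9, zbtb16a and hsd11b2. With 1 library left out, zbtb16a was not past them in 4 of the 6 fits and hsd11b2 in 1, while fkbp5 and klf9 were past them in each. Without an intensity trend, zbtb16a and hsd11b2 were not past them. The log2 difference was negative for 9 of the 10, with a median of -1.49, and for 8016 of all 16383 genes tested. Of the 10, 8 had an unadjusted limma p under 0.05, as did 2157 of all 16383 genes tested. Among these 8, nr3c1 was higher in mutants and the others lower. fkbp5 had 21549, 26194 and 27804 in wild-type pools and 3329, 4186 and 5403 in mutant pools, a log2 difference of -2.57 ± 0.19 (SE). klf9 had 413, 544 and 354 against 44, 57 and 74. Of the 6 not past the criteria, the log2 difference was -1.84 ± 0.43 for mt2, -1.32 ± 0.47 for zbtb16b, -0.57 ± 0.21 for tsc22d3, -0.21 ± 0.28 for dusp1 and -0.07 ± 0.22 for sgk1. Between genotypes, mt2 and tsc22d3 did not overlap, with mutants lower, nor did nr3c1, with mutants higher. Such separation was found in 8.98% (lower) and 9.09% (higher) of all genes tested. The receptor gene nr3c1 had 638, 616 and 747 against 964, 852 and 895, a log2 difference of 0.44 ± 0.13 with a limma adjusted p of 0.195. Of 16 immediate early genes, limma placed 0 past the criteria and 4 at an unadjusted p under 0.05, beside 2157 of all 16383 genes tested. Their median log2 difference was -0.12. fosab, one of the most abundant of these, had 43693, 37554 and 26880 in wild-type pools and 40185, 32240 and 45386 in mutant pools.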
